A study of Homo sapiens with 4 samples.

Results

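The YAP and TEAD genes described here are 10 genes that were chosen by symbol from the 33694 genes of the deposited count tables, and each symbol matched 1 row. They comprise 7 genes known as targets of YAP and TEAD (*CYR61*, *CTGF*, *ANKRD1*, *AMOTL2*, *AMOTL1*, *LATS2* and *AXL*) and 3 genes that act upstream of them (*YAP1*, *WWTR1* and *TEAD1*). *CYR61* and *CTGF* are the older symbols of *CCN1* and *CCN2*. The genes were measured by droplet-based scRNA-seq in OVCA420, an established epithelial ovarian cancer cell line, in which TGF-β1 was used to induce EMT. Cells without treatment served as Ctrl, and the others received TGF-β1 at 10 ng/mL over 1, 3 or 7 days, with the start of treatment staggered so that all cells were collected together. The data comprise 4 libraries, 1 per time point, all from the same line without any genetic change described in the labels. Cultures were split when needed and TGF-β1 was renewed with the medium, so that passaging and exposure time cannot be told apart. No difference between time points could be compared with the spread between replicates, and no p-value is given.

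YAP and its paralog TAZ, encoded by *YAP1* and *WWTR1*, are transcriptional coactivators that do not bind DNA themselves and act on their targets through the TEAD family of DNA-binding factors. The Hippo kinases, of which LATS1 and LATS2 are the last, phosphorylate YAP and TAZ and hold them in the cytoplasm, so that YAP and TAZ activity is set largely at the protein level. Several targets, among them LATS2 and the motins AMOTL1 and AMOTL2, are also inhibitors of YAP and TAZ. In epithelial and ovarian cancer cells the pathway is known to respond to cell density, the cytoskeleton and adhesion. UMI counts report RNA only, and neither the location nor the phosphorylation of YAP and TAZ was measured.

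The letters bound by TEAD factors (CATTCC, read on either strand) were looked up in the RefSeq promoter windows of GRCh38.p14, which run from 250 bases before to 50 bases after each annotated start. Windows were found for 8 of the 10 genes (11 windows), and *CYR61* and *TEAD1* had no entry. The letters were present in a window of 6 genes, namely *CTGF*, *ANKRD1*, *AMOTL2*, *AXL*, *YAP1* and *LATS2*. Genes with 2 windows (*AMOTL2*, *AXL* and *WWTR1*) could match in either. The shares of all promoters, here and below, are per window instead. Among 35116 promoter windows of the same length, 14.0% held the letters at least once, 1.37% at least 2 times and 0.128% at least 3 times. The 250 bases before the start are shown for *CTGF*, *ANKRD1*, *AMOTL2* and *AXL*, the 4 targets with a match in them. The windows of *AMOTL1* and of the first starts of *AMOTL2* and *AXL* held no match and are not shown. Bases are given 5′ to 3′ on the strand of the gene, with the TEAD letters, or their reverse complement, in capitals.
CTGF, chr6:131951373-131951622, minus strand: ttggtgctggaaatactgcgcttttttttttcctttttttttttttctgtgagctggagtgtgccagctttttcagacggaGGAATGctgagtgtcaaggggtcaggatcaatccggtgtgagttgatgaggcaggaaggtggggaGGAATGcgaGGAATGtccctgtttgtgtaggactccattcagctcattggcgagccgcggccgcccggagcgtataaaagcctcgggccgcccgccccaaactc
ANKRD1, chr10:90921088-90921337, minus strand: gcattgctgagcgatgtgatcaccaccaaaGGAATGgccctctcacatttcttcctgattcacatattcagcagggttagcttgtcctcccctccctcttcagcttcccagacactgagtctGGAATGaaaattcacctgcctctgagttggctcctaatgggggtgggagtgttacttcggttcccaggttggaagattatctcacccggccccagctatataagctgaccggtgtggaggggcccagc
AMOTL2, chr3:134374448-134374697, minus strand: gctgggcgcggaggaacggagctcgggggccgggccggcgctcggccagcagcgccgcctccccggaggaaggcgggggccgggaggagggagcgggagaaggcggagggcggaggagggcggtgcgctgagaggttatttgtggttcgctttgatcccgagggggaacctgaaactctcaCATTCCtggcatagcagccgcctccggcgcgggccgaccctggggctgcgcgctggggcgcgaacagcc
AXL, chr19:41226505-41226754, plus strand: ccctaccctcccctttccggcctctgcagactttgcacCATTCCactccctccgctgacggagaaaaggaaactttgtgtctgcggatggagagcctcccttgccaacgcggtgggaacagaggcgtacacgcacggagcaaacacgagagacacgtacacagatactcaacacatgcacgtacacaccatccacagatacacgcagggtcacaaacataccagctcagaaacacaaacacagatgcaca
The *CTGF* window held 3 matches, 169, 104 and 95 bases before the start. The *ANKRD1* window held 2 matches, 220 and 128 bases before the start. A single match lay 69 bases before the second annotated start of *AMOTL2*, 212 bases before the second start of *AXL* and 162 bases before the start of *YAP1*, and in *LATS2* the letters began at position 10 after the start. The letters CAGACA (read on either strand), known from SMAD factors, occurred in windows of *ANKRD1*, *AMOTL2*, *AMOTL1*, *AXL* and *WWTR1* and in 16.9% of all windows. Only these exact letters were looked up. Stretches that share just CAGAC, such as cagacg in the *CTGF* window, were not counted, so a gene not named here may still hold a SMAD site. The AP-1 letters were looked up in a loose form, TGANTCA, in which N can be any base. They occurred in *ANKRD1* alone among these genes, as TGATTCA, and in 7.71% of all windows. A stricter form was not counted. A match describes the sequence only, and binding was not measured.

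From the 10710 barcodes listed, 3170 cells were read and 3144 were retained, from 933 in Ctrl to 569 at 7-day, and the remaining barcodes were not analysed here. The retained cells held between 25382817 and 32949874 UMIs per library, and the median UMIs per cell were 30270 for Ctrl and 32393, 43553 and 43382 for cells treated for 1, 3 and 7 days. The share of cells called G1 was 25.4% for Ctrl and 74.7%, 48.9% and 40.4% after 1, 3 and 7 days. The 6 epithelial markers summed to between 3201 and 4659 CPM in every library, although *PAX8* among them was near 0. Leukocyte markers summed to at most 0.733 CPM, fibroblast markers to at most 1.37 CPM, and endothelial markers to 5.40 CPM in Ctrl (nearly all *CDH5*) and at most 0.473 CPM in treated libraries. Each pair of libraries shared between 1 and 7 barcode sequences among retained cells.

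Levels are given as CPM, the UMIs of a gene per 1000000 UMIs after all retained cells of the library were added up, and each has an exact 95% Poisson interval. Differences are log2 ratios of CPM with exact conditional 95% intervals. PCR and handling add error that these intervals do not hold, as they cover counting error only. Genes were called higher or lower at a ratio of at least 2-fold.

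At 1-day, 6 of the 10 genes were higher than in Ctrl by at least 2-fold (*CYR61*, *CTGF*, *ANKRD1*, *AMOTL2*, *LATS2* and *TEAD1*) and 1, *AMOTL1*, was lower. Of the 8123 genes that reached 10 CPM in Ctrl or at 1-day, 9.34% were higher and 9.31% were lower in that comparison. *AXL* did not reach that level, which leaves 6 of 9 higher and 1 lower. At 3-day, 7 of the 10 genes were higher and 0 were lower. With at least 10 CPM, which leaves out *AXL*, 6 of 9 were higher, beside 10.1% of 8207 genes, of which 5.92% were lower. *AXL* was the addition at 3-day, at a level under 10 CPM. At 7-day, 8 of the 10 genes were higher and 0 were lower, beside 11.8% and 5.29% of all genes, and the 2 that stayed within 2-fold were the coactivators *YAP1* and *WWTR1*. Median log2 ratios over the 10 genes were 1.17, 1.79 and 2.63 at 1, 3 and 7 days. With at least 10 CPM they were 1.33, 1.90 and 2.63, beside -0.06, 0.04 and 0.11 over all genes at that level. *ANKRD1*, *AMOTL2*, *LATS2* and *AXL* were under 10 CPM in Ctrl and met that level only through treated libraries. The counts at that level are therefore partly fixed by the limit.

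**Figure D1:**
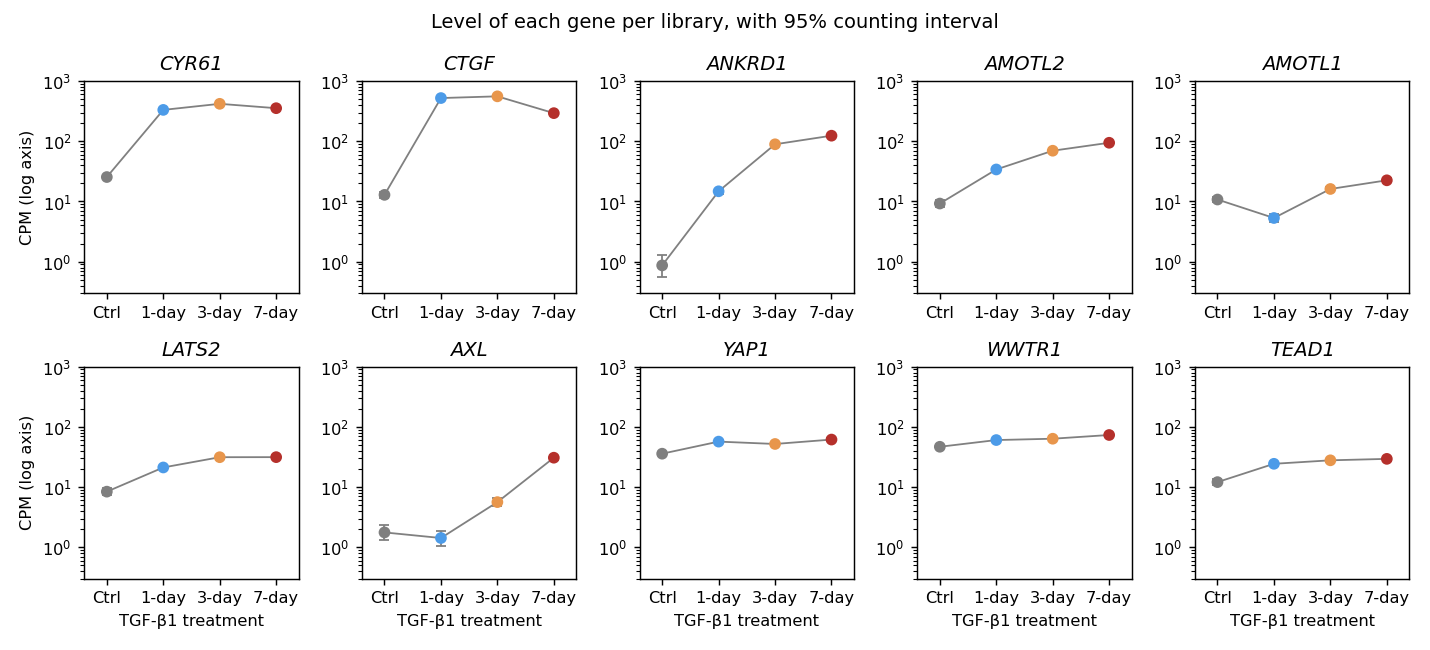
Level of each of the 10 genes (CPM, log axis) in the 4 libraries, with 95% counting intervals where they exceed the points. *CYR61* and *CTGF* stand near their highest level at 1-day, *ANKRD1*, *AMOTL2* and *AXL* are highest at 7-day, *AMOTL1* dips at 1-day, and *YAP1* and *WWTR1* stay within 2-fold of Ctrl.

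The secreted targets *CYR61* and *CTGF* were near their highest level after 1 day. Both encode matricellular proteins of the CCN family, which bind integrins and matrix outside the cell. *CYR61* (ENSG00000142871, chr1:85580761-85584589) was at 25.4 CPM (23.7 to 27.3) in Ctrl, 332 CPM (325 to 338) at 1-day, 418 CPM (411 to 426) at 3-day and 354 CPM (347 to 361) at 7-day. Its log2 ratio to Ctrl was 3.70 (3.60 to 3.81) at 1-day, 4.04 (3.93 to 4.15) at 3-day and 3.80 (3.69 to 3.91) at 7-day, so that the 3 treated libraries were far above Ctrl and close to each other. *CTGF* (ENSG00000118523, chr6:131948176-131951372) was at 12.9 CPM (11.6 to 14.2) in Ctrl, 522 CPM (514 to 529) at 1-day, 557 CPM (549 to 565) at 3-day and 293 CPM (286 to 299.7) at 7-day. Its log2 ratio to Ctrl was 5.34 (5.20 to 5.49), 5.44 (5.29 to 5.58) and 4.51 (4.36 to 4.66) at 1, 3 and 7 days. From 3-day to 7-day the ratio of *CTGF* was -0.93 (-0.97 to -0.89) on the log2 scale, against -0.24 (-0.28 to -0.20) for *CYR61*, so the 2 genes parted late in the treatment. At 7-day versus 3-day, 1.32% of 8048 genes were higher and 0.621% were lower by at least 2-fold, and neither gene passed that limit.

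*ANKRD1* and *AMOTL2* were higher at each later time point. ANKRD1 is an ankyrin repeat protein of the nucleus and sarcomere and a widely used readout of YAP activity. *ANKRD1* (ENSG00000148677, chr10:90912096-90921087) was at 0.867 CPM (0.566 to 1.27, 26 UMIs) in Ctrl, 14.7 CPM (13.5 to 16.1) at 1-day, 89.0 CPM (85.8 to 92.3) at 3-day and 124 CPM (119 to 128) at 7-day. Its log2 ratio to Ctrl was 4.09 (3.52 to 4.72), 6.68 (6.13 to 7.30) and 7.16 (6.60 to 7.77) at 1, 3 and 7 days. The step from 1-day to 3-day was 2.59 (2.45 to 2.74), and the step from 3-day to 7-day was 0.47 (0.40 to 0.55). At 1-day the 10 cells with the most *ANKRD1* UMIs held 43.8% of its 486 UMIs, whereas in Ctrl its 26 UMIs came from 14 cells in all. *AMOTL2*, which encodes a motin that binds YAP at cell junctions (ENSG00000114019, chr3:134355347-134375479), was at 9.23 CPM (8.18 to 10.4) in Ctrl, 34.0 CPM (32.0 to 36.0) at 1-day, 69.6 CPM (66.7 to 72.5) at 3-day and 94.4 CPM (90.6 to 98.2) at 7-day. Its log2 ratio to Ctrl was 1.88 (1.69 to 2.08), 2.91 (2.73 to 3.10) and 3.35 (3.17 to 3.54), and the step from 1-day to 3-day was 1.03 (0.93 to 1.14). No intervals of *ANKRD1* or *AMOTL2* overlapped between libraries, but the share of all genes without overlap was not counted, so nothing is drawn from it.

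*AMOTL1*, the other motin of the set, moved differently from *AMOTL2*. *AMOTL1* (ENSG00000166025, chr11:94706431-94876748) was at 10.8 CPM (9.63 to 12.0) in Ctrl, 5.31 CPM (4.55 to 6.16) at 1-day, 16.1 CPM (14.8 to 17.6) at 3-day and 22.5 CPM (20.7 to 24.4) at 7-day. Its log2 ratio to Ctrl was -1.02 (-1.29 to -0.75) at 1-day, 0.58 (0.38 to 0.79) at 3-day and 1.06 (0.86 to 1.26) at 7-day. The 1-day value lay at the 2-fold limit, and with TMM or median-of-ratios scaling it was -0.92 or -0.94, past the limit no longer. From 1-day to 3-day the log2 ratio was 1.60 (1.35 to 1.86).

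*LATS2*, the kinase that phosphorylates YAP and TAZ, reached a plateau at 3-day. *LATS2* (ENSG00000150457, chr13:20973036-21061586) was at 8.40 CPM (7.40 to 9.50) in Ctrl, 21.2 CPM (19.6 to 22.8) at 1-day, 31.4 CPM (29.5 to 33.4) at 3-day and 31.4 CPM (29.3 to 33.7) at 7-day. Its log2 ratio to Ctrl was 1.33 (1.12 to 1.55), 1.90 (1.70 to 2.11) and 1.90 (1.70 to 2.11). The last step was 0.00 (-0.13 to 0.14), within counting error.

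*AXL* had its largest step last, between 3-day and 7-day. It encodes a receptor tyrosine kinase for GAS6 and lies at chr19:41219223-41261766 (ENSG00000167601). It was at 1.77 CPM (1.32 to 2.31, 53 UMIs) in Ctrl, 1.43 CPM (1.05 to 1.90, 47 UMIs) at 1-day, 5.63 CPM (4.84 to 6.51) at 3-day and 30.8 CPM (28.6 to 33.0) at 7-day. Over all cells the log2 ratio to Ctrl was -0.31 (-0.91 to 0.29) at 1-day, within counting error, though it differed between phases as given below. It was then 1.67 (1.22 to 2.14) at 3-day and 4.12 (3.72 to 4.55) at 7-day. It was the only one of the 10 genes that was higher by at least 2-fold at 7-day than at 3-day, with a log2 ratio of 2.45 (2.21 to 2.69). From 1-day to 3-day, 4 of the 10 genes were higher by at least 2-fold (*ANKRD1*, *AMOTL2*, *AMOTL1* and *AXL*), and 0 were lower. With at least 10 CPM in either library, which leaves out *AXL*, 3 of 9 were higher, beside 4.24% of 7950 genes, and 2.48% of all genes were lower.

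Over all cells at 7-day the coactivators themselves differed less from Ctrl than each target of the set did. This order held within G1 cells but not in the other phases. Within S cells *YAP1* had a log2 ratio of 0.85, against 0.67 for *AMOTL1*. Within G2/M cells *WWTR1* and *AMOTL1* were about equal, at 1.04. Nor did the order hold at every time, as *AXL* at 1-day had a log2 ratio of -0.31 over all cells, within counting error. *YAP1* (ENSG00000137693, chr11:102110447-102233424) was at 35.9 CPM (33.8 to 38.1) in Ctrl, 56.9 CPM (54.4 to 59.6) at 1-day, 52.0 CPM (49.6 to 54.6) at 3-day and 61.6 CPM (58.6 to 64.7) at 7-day. *WWTR1* (ENSG00000018408, chr3:149517235-149736714) was at 46.7 CPM (44.3 to 49.3) in Ctrl, 60.4 CPM (57.8 to 63.1) at 1-day, 63.6 CPM (60.9 to 66.4) at 3-day and 73.3 CPM (70.0 to 76.7) at 7-day. Log2 ratios to Ctrl were 0.67, 0.54 and 0.78 for *YAP1* and 0.37, 0.44 and 0.65 for *WWTR1*. Over all cells these ratios stayed under 2-fold, but those of *WWTR1* differed between phases. At 1-day its ratio was 0.35 (0.18 to 0.51) within G1 cells and 0.21 (-0.05 to 0.47) within S cells. Within G2/M cells it was -0.06 (-0.29 to 0.17). At 7-day it was 0.32 within G1, 0.50 within S and 1.04 (0.88 to 1.20) within G2/M cells. The intervals cover counting error only. *TEAD1*, the DNA-binding partner (ENSG00000187079, chr11:12674421-12944737), was at 12.1 CPM (10.9 to 13.4) in Ctrl, 24.4 CPM (22.7 to 26.1) at 1-day, 27.8 CPM (26.1 to 29.7) at 3-day and 29.4 CPM (27.4 to 31.6) at 7-day. Its log2 ratio was 1.01 (0.83 to 1.19), 1.20 (1.02 to 1.38) and 1.28 (1.10 to 1.47), past 2-fold at each time. The 1-day value lay at the limit, at 0.99 with a mitochondrial limit of 10% and 0.97 in the earlier of 2 equal sets of cells in barcode order. Of the other TEAD genes, *TEAD4* was at 24.4, 18.3, 23.5 and 22.9 CPM in Ctrl and at 1, 3 and 7 days, *TEAD3* was between 6.47 and 8.92 CPM, and *TEAD2* was at most 0.39 CPM.

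Among 22 other Hippo pathway genes, 3 of the 15 with at least 10 CPM were higher by at least 2-fold at 1-day. At 3-day 4 of 16 were higher and at 7-day 7 of 17, and 0 were lower. Of all genes at that level, 9.34%, 10.1% and 11.8% were higher and 9.31%, 5.92% and 5.29% were lower. *VGLL3* (2.10 CPM in Ctrl), counted as higher at each time, met that level through treated libraries alone. So did *MOB1B* at 7-day (4.80 CPM in Ctrl, 11.3 CPM at 7-day). The counts are therefore partly fixed by the limit. Over all 22 genes, 3, 5 and 8 were higher at 1, 3 and 7 days and 1 was lower each time. Among all genes with at least 1 UMI, 18.0%, 17.4% and 20.2% were higher and 19.7%, 20.8% and 19.0% lower. The median log2 ratio of the Hippo pathway genes with at least 10 CPM was 0.33, 0.56 and 0.74. The largest ratios were those of *FRMD6*, a FERM domain protein upstream of the kinases, and *VGLL3*, a cofactor that binds TEAD. *FRMD6* was at 13.4 CPM in Ctrl and 115, 136 and 96.9 CPM at 1, 3 and 7 days (log2 ratio 3.09, 3.34 and 2.85). *VGLL3* was at 2.10 CPM in Ctrl and 31.8, 39.0 and 24.8 CPM (log2 ratio 3.92, 4.22 and 3.56), so that both were highest at 3-day, like *CYR61* and *CTGF*. *PTPN14*, a phosphatase that binds YAP, was at 29.1 CPM in Ctrl and 68.2, 90.9 and 106 CPM (log2 ratio 1.23, 1.64 and 1.86). *NF2*, which encodes merlin, passed 2-fold from 3-day on (1.07 and 1.09). The scaffold *SAV1* (1.07), the LATS adaptor *MOB1B* (1.23) and *WWC1*, which encodes KIBRA (1.16), passed it at 7-day alone. *AMOT*, the remaining motin, never reached 10 CPM and was chosen after its values were seen: it was at 3.30 CPM in Ctrl and 0.61, 0.37 and 0.79 CPM at 1, 3 and 7 days, lower where *AMOTL2* was higher.

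Of 16 other genes known as YAP and TAZ targets in cancer cells, 4 of 10 with at least 10 CPM were higher by at least 2-fold at 1-day. At 3-day 7 of 11 were higher and at 7-day 8 of 11, beside 9.34%, 10.1% and 11.8% of all genes at that level. At that level 0 were lower, and under it 1 was lower at 1-day and 1 at 7-day. *CCDC80* and *FJX1* met the level through treated libraries alone, so these counts are partly fixed by the limit. Over all 16 genes, 6, 8 and 9 were higher at 1, 3 and 7 days. Among all genes with at least 1 UMI, 18.0%, 17.4% and 20.2% were higher. The median log2 ratio of the targets with at least 10 CPM was 0.67, 1.54 and 1.44. *F3*, which encodes tissue factor, had the early course of *CYR61*, with 14.2 CPM in Ctrl and 205, 200.5 and 242 CPM at 1, 3 and 7 days (log2 ratio 3.85, 3.82 and 4.09). *CCDC80*, a secreted matrix protein gene, had the later course of *ANKRD1*, with 0.77 CPM in Ctrl and 10.6, 69.1 and 123 CPM (log2 ratio 3.79, 6.49 and 7.33). *FJX1*, a secreted glycoprotein gene, was at 2.80 CPM in Ctrl and 5.71, 21.9 and 40.0 CPM, with a log2 ratio of 3.84 at 7-day. *NUAK2*, a kinase gene, was highest at 1-day (log2 ratio 2.01, 1.54 and 1.43). *CRIM1*, a transmembrane binder of BMPs, had ratios of 0.98, 2.20 and 1.99, and the stress gene *GADD45A* had 0.21, 1.25 and 1.44. *NT5E*, which encodes the ectonucleotidase CD73, passed 2-fold at 7-day alone (1.11), and *PTPN14* belongs to both lists. *MYOF* did not pass (-0.44, -0.28 and 0.26), nor did *ASAP1* and *DOCK5* (0.99 and 0.83 at 7-day), and *IGFBP3*, *FOXF2* and *RBMS3* were at or near 0 in every library.

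**Figure D2:**
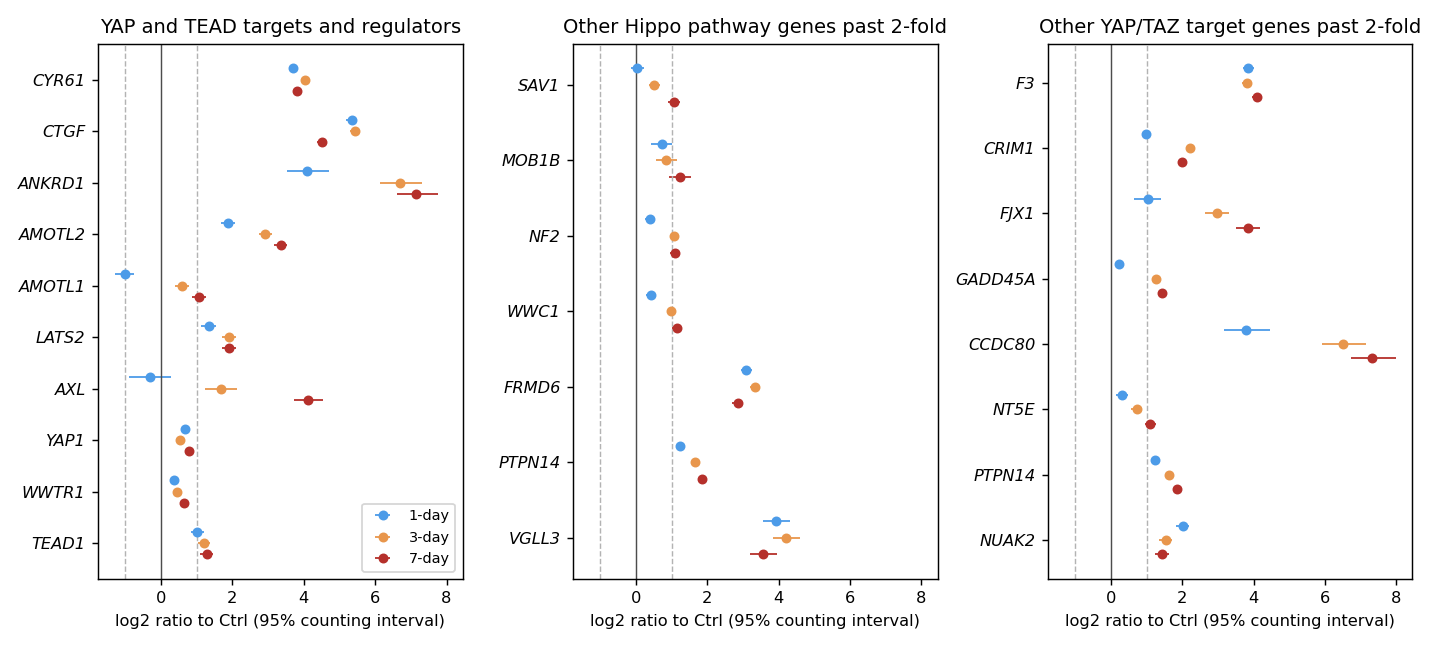
Log2 ratio to Ctrl at 1, 3 and 7 days, with 95% counting intervals, of the 10 genes (left) and of the genes of both other lists that passed 2-fold (dashed lines) with at least 10 CPM. *AMOTL1* at 1-day is the one point at or beyond the lower line, and *AXL* spans from -0.31 to 4.12.

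In the plot of log2 ratios, *ANKRD1* and *CCDC80* have wide intervals, as their level in Ctrl rests on few UMIs.

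The share of cells in which a gene was detected followed its level. At low counts this is largely fixed in advance, so the shares are another form of the levels. Shares of cells with at least 1 UMI are given as measured and after random thinning of every cell down to 18000 UMIs. Thinning was used since the 3-day and 7-day cells held more UMIs. Sequencing depth and RNA per cell cannot be told apart in this. No cell type without these genes was present, so the share that free RNA alone gives was not measured. *CYR61* was detected in 34.8% of Ctrl cells (31.8 to 38.0) and in 97.0%, 98.7% and 98.4% of cells at 1, 3 and 7 days, and after thinning in 24.1%, 93.0%, 97.0% and 94.2%. *CTGF* was detected in 22.4% of Ctrl cells (19.8 to 25.2) and in 96.4%, 98.2% and 95.1%, and after thinning in 15.8%, 92.0%, 95.3% and 87.1%. Each of the CCN transcripts was thus detected in most treated cells from 1-day on.

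The other targets were detected in part of the treated cells. A cell without a UMI can still hold the RNA, so these shares do not mark out a subset of cells. *ANKRD1* was detected in 1.5% of Ctrl cells (0.823 to 2.51) and in 15.7%, 58.3% and 70.7% of cells at 1, 3 and 7 days, and after thinning in 0.948%, 12.2%, 44.9% and 52.8%. *AXL* was detected in 4.07% of Ctrl cells (2.90 to 5.55) and in 4.27%, 18.0% and 46.4%, and after thinning in 2.13%, 2.22%, 8.86% and 27.5%. *AMOTL2* was detected in 23.2% of Ctrl cells (20.5 to 26.0) and in 59.9%, 85.7% and 90.9%, and after thinning in 12.8%, 41.7%, 64.4% and 77.0%. *AMOTL1* followed its level, with thinned shares of 16.8%, 8%, 23.6% and 31.3%. The thinned shares of *LATS2* were 13.3%, 28.9%, 39.7% and 39.3%, and those of *TEAD1* were 17.5%, 34.2%, 39.0% and 41.5%. *YAP1* and *WWTR1* were found in many cells of every library, with thinned shares between 44.2% and 63.6% and between 52.8% and 72.3%, respectively.

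**Figure D3:**
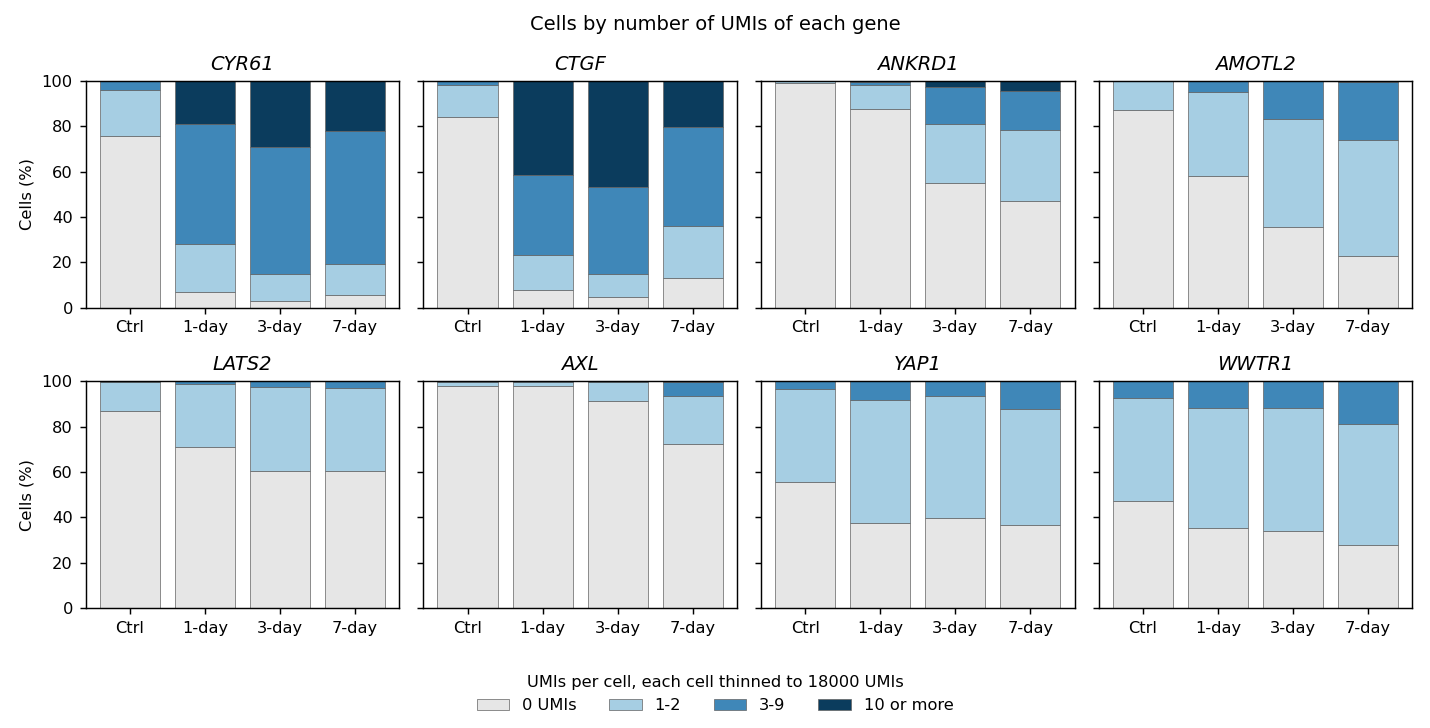
Percentage of cells with 0, 1 to 2, 3 to 9, or 10 and more UMIs of each of 8 genes in the 4 libraries, each cell thinned to 18000 UMIs. The class of 10 and more is large for *CYR61* and *CTGF* in treated cells, and for *CTGF* it drops from 46.5% of cells at 3-day to 20.4% at 7-day.

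Within a library the genes differed in how evenly the cells held them. In cells thinned to 18000 UMIs the median number of *CTGF* UMIs was 8 at 1-day (10th to 90th percentile 1 to 21), 9 at 3-day (2 to 20) and 4 at 7-day (0 to 13). The median of *CYR61* was 5 (1 to 12), 7 (2 to 14) and 6 (1 to 13). The variation between cells beyond Poisson counting error, as a squared coefficient of variation, was 3.43 for *CYR61* and 3.08 for *CTGF* in Ctrl. In treated libraries it was between 0.338 and 0.493 for *CYR61* and between 0.510 and 0.789 for *CTGF*. This spread is relative to the mean, which was far higher after treatment. In Ctrl, 75.9% of thinned cells held 0 UMIs of *CYR61* and 84.2% held 0 of *CTGF*. The lower values therefore do not show that the cells became more alike in these genes. The same quantity was 18.8, 3.56 and 3.53 for *ANKRD1* at 1, 3 and 7 days and 3.94 and 2.84 for *AXL* at 3 and 7 days, above the other 8 genes in those libraries. *YAP1* and *WWTR1* were at between 0.053 and 0.292 and between 0.105 and 0.342 over the 4 libraries, respectively.

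Co-expression was described by Pearson's r of log-normalized values across the cells of each library. Cells of a library share its preparation, so no p-value is given. Differences in UMIs per cell can affect r, so the values from thinned cells stand beside them. Thinning also discards counts, which itself weakens r, so the part of depth cannot be read from the difference. The pair of *CYR61* and *CTGF* had the highest r of all 45 pairs in each library, with 0.32 for Ctrl and 0.54, 0.50 and 0.62 after 1, 3 and 7 days, and 0.21, 0.46, 0.40 and 0.54 in thinned cells. Among all genes with at least 10 CPM in a library, the gene with the highest r to *CYR61* was *CTGF* at 1, 3 and 7 days. In Ctrl it was *CRCT1* (0.325, beside 0.320 for *CTGF*). The gene with the highest r to *CTGF* at 1-day was *THBS1* (0.552), ahead of *CYR61*. The median r of *CYR61* with all genes was between 0.00 and 0.03. *CYR61* and *AMOTL2* had an r of 0.24, 0.36, 0.36 and 0.46 in Ctrl and at 1, 3 and 7 days. *CTGF* and *AMOTL2* had 0.09, 0.28, 0.25 and 0.40. The mean r over all 45 pairs was 0.08 for Ctrl and 0.10, 0.10 and 0.11 after 1, 3 and 7 days. A group of 5 targets that leaves out *AMOTL1* and *AXL*, chosen with the values known, had higher values. The mean r over the 10 pairs of *CYR61*, *CTGF*, *ANKRD1*, *AMOTL2* and *LATS2* was 0.14 for Ctrl and 0.22, 0.26 and 0.32 after 1, 3 and 7 days, and 0.09, 0.15, 0.19 and 0.23 in thinned cells. Low counts of a gene also weaken its r, and thinning does not even out the counts of each gene. *CTGF* had 386 UMIs in Ctrl and 17184 at 1-day, and *ANKRD1* had 26 and 486. A higher r in treated libraries cannot be told apart from these higher counts.

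The r of the upstream genes with the other genes is given beside the mean over all 45 pairs, 0.08 to 0.11 in the 4 libraries. Those 5 targets were chosen with their values known, so a higher mean among them is partly fixed by that choice. The mean r of *YAP1*, *WWTR1* and *TEAD1* with the other 7 genes was between 0.06 and 0.08 in the 4 libraries, and no such pair exceeded 0.21. A low r in sparse counts can still be high among genes, as in some pairs chosen after their values were seen. The r of *TEAD1* and *CYR61* at 3-day (0.19) lay at percentile 99.96 of the r of *TEAD1* with all genes of at least 10 CPM. That of *TEAD1* and *CTGF* at 1-day (0.17) lay at percentile 99.8, and that of *YAP1* and *AMOTL2* at 7-day (0.21) at percentile 99.2. Among the r of the target with all genes, the same pairs lay lower, at percentiles 97.8, 95.5 and 96.4. Other pairs ranked far lower among the r of the upstream gene, such as *TEAD1* and *CTGF* in Ctrl at percentile 44.3. *WWTR1* and *AMOTL2* in Ctrl lay at percentile 32.1, and *YAP1* and *LATS2* at 1-day at percentile 44.2. For *AXL* in Ctrl, *AMOTL2* and *CTGF* lay at percentiles 98.1 and 97.0 (r of 0.12 and 0.11). At 7-day, *AXL* had an r between -0.17 and -0.10 with the same 5 targets (mean -0.15, and -0.10 in thinned cells), whereas the mean was 0.07 in Ctrl, 0.06 at 1-day and -0.02 at 3-day. These are weak values in sparse counts, and within phases the r of *CTGF* and *AXL* was -0.05 in G1, -0.26 in S and -0.09 in G2/M cells.

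**Figure D4:**
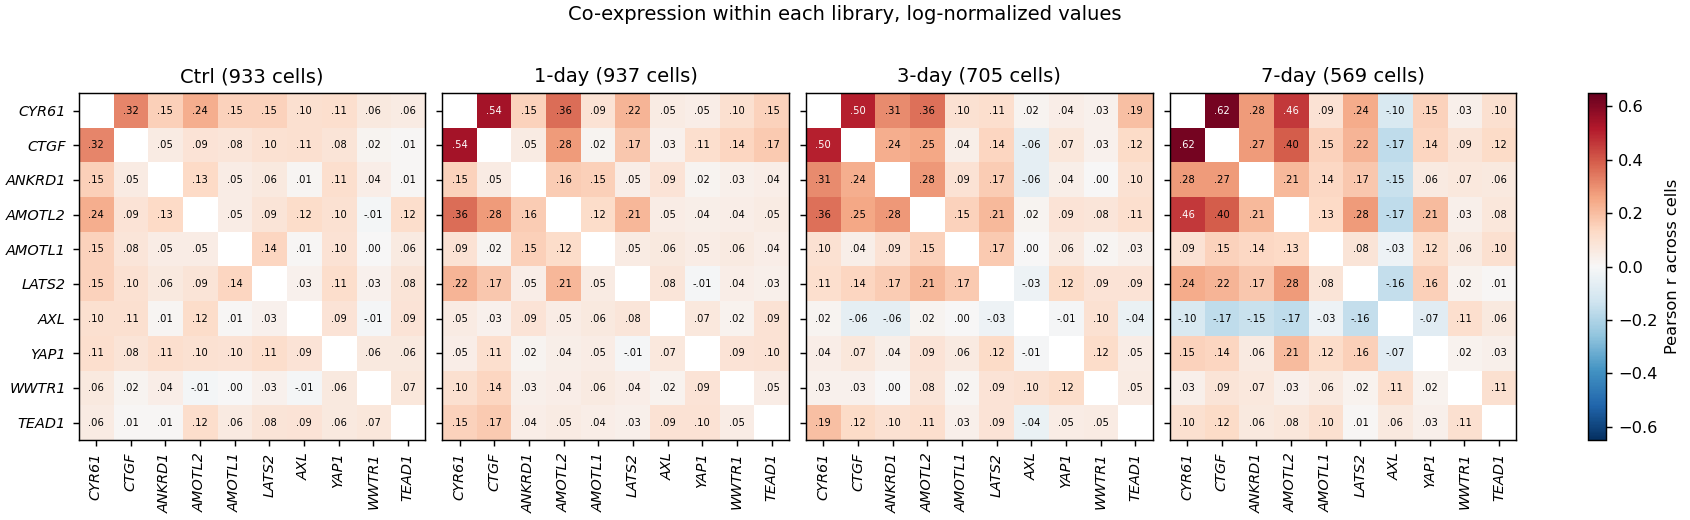
Pearson's r between each pair of the 10 genes across the cells of each library, from log-normalized values, with red above 0 and blue below 0. The block of *CYR61*, *CTGF*, *ANKRD1*, *AMOTL2* and *LATS2* is redder in treated libraries than in Ctrl, where the counts of these genes are lower. The mean over all 45 pairs is between 0.08 and 0.11 in the 4 libraries, and the row of *AXL* is pale or blue at 7-day.

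The correlations with *CTGF* can also be given as UMIs per cell, from the same cells. Among thinned 7-day cells, the 137 cells with the least *CTGF* held a mean of 0.48 *CTGF* UMIs and the 137 cells with the most held 13.4, a contrast fixed by the choice. *CYR61* was at 3.61 UMIs per cell in the former and 9.82 in the latter, *ANKRD1* at 0.95 and 3.02, *AMOTL2* at 1.18 and 2.20, and *LATS2* at 0.38 and 0.74. *WWTR1* was alike in both, at 1.53 and 1.45, whereas *YAP1* was at 0.99 and 1.33 and *TEAD1* at 0.45 and 0.72, a ratio of 1.61 beside 1.87 for *AMOTL2*. At 3-day the ratio was 1.53 for *TEAD1* and 1.39 for *AMOTL2*. At 7-day *AXL* was at 0.71 UMIs in cells with the least *CTGF* and 0.26 in cells with the most. At 1-day the mean of *ANKRD1* was 0.19 and 0.21 UMIs per cell, although it was detected in 4.44% and 14.2% of these cells, and at 3-day the means were 0.61 and 2.08.

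Outside the set, the genes most like *CYR61* and *CTGF* were taken from 2074 genes with at least 50 CPM in every library, by the mean r over the 4 libraries. For *CYR61* these were *THBS1*, encoding the matrix protein thrombospondin-1 (0.38), *CRCT1*, an epidermal differentiation gene (0.34), and *FLNA*, encoding the actin crosslinker filamin A (0.33). For *CTGF* they were *PMEPA1*, a feedback inhibitor of TGF-β signaling (0.41), *THBS1* (0.40) and *FLNA* (0.34). *PMEPA1* was at 66.8 CPM in Ctrl and 1501, 1385 and 962 CPM at 1, 3 and 7 days, and its r with *CTGF* was 0.22, 0.43, 0.46 and 0.53.

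At 7-day *AXL* and *ANKRD1* differed by cell cycle phase, in opposite directions. Phase calls rest on cell cycle gene lists that hold none of these genes, and the shares of phases differed between libraries. At 7-day *AXL* was at 9.65 CPM (7.82 to 11.8) in G1 cells, 33.3 CPM (27.8 to 39.5) in S cells and 48.5 CPM (44.6 to 52.7) in G2/M cells. The log2 ratio of G2/M to G1 cells was 2.33 (2.02 to 2.66), a comparison in which 6.19% of 8261 genes were higher and 1.71% lower by at least 2-fold. At 3-day the ratio of *AXL* was 0.98 (0.45 to 1.53), and at 1-day it was 0.87 (-0.12 to 1.80), an interval that includes 0. In Ctrl, at a level of few UMIs, it was -1.67 (-2.78 to -0.63). Within G1 cells the log2 ratio of *AXL* at 7-day to Ctrl was 1.54, and within S and G2/M cells it was 4.37 and 5.55, against 4.12 over all cells. Within G1 cells at 3-day it was 0.03 (-0.71 to 0.81), where all cells gave 1.67, so that no 3-day difference was detectable in G1 cells at this depth. At 1-day the ratio of *AXL* to Ctrl was -1.32 (-2.14 to -0.48) within G1 cells and 1.22 (0.05 to 2.41) within G2/M cells. The latter rests on 15 and 13 UMIs, and S cells held 0 UMIs at 1-day and 17 in Ctrl.

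*ANKRD1* was lower in G2/M than in G1 cells of every library. At 7-day it was at 171 CPM in G1, 162 CPM in S and 68.2 CPM in G2/M cells. The log2 ratio of G2/M to G1 cells was -2.27 (-3.91 to -0.84) in Ctrl, -2.61 (-3.36 to -1.95) at 1-day, -1.88 (-2.03 to -1.72) at 3-day and -1.33 (-1.45 to -1.21) at 7-day. The Ctrl value rests on 6 UMIs in G2/M and 16 in G1 cells, under 10 CPM. At 1-day few cells held much of the RNA, a spread that the interval does not hold. The share of all genes lower by at least 2-fold was 0.522% in Ctrl, 0.907% at 1-day and 1.09% at 3-day, and the share higher was 3.3%, 5.6% and 5.77%. *CTGF* had smaller ratios in the same direction, at -0.29, -0.60, -0.56 and -0.54, and so did *LATS2*, at -0.26, -0.64, -0.46 and -0.71. In Ctrl the intervals of both included 0. *CYR61* (-0.69, -0.51, -0.16 and -0.28) and *AMOTL2* (-0.69, -0.33, -0.32 and -0.38) went the same way, with every interval below 0. After thinning, *AXL* was detected at 7-day in 25.2% of the cells with *ANKRD1* and in 30.1% of those without it. *WWTR1* moved with phase and time: its log2 ratio at 7-day to Ctrl was 0.32 within G1 and 1.04 within G2/M cells.

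**Figure D5:**
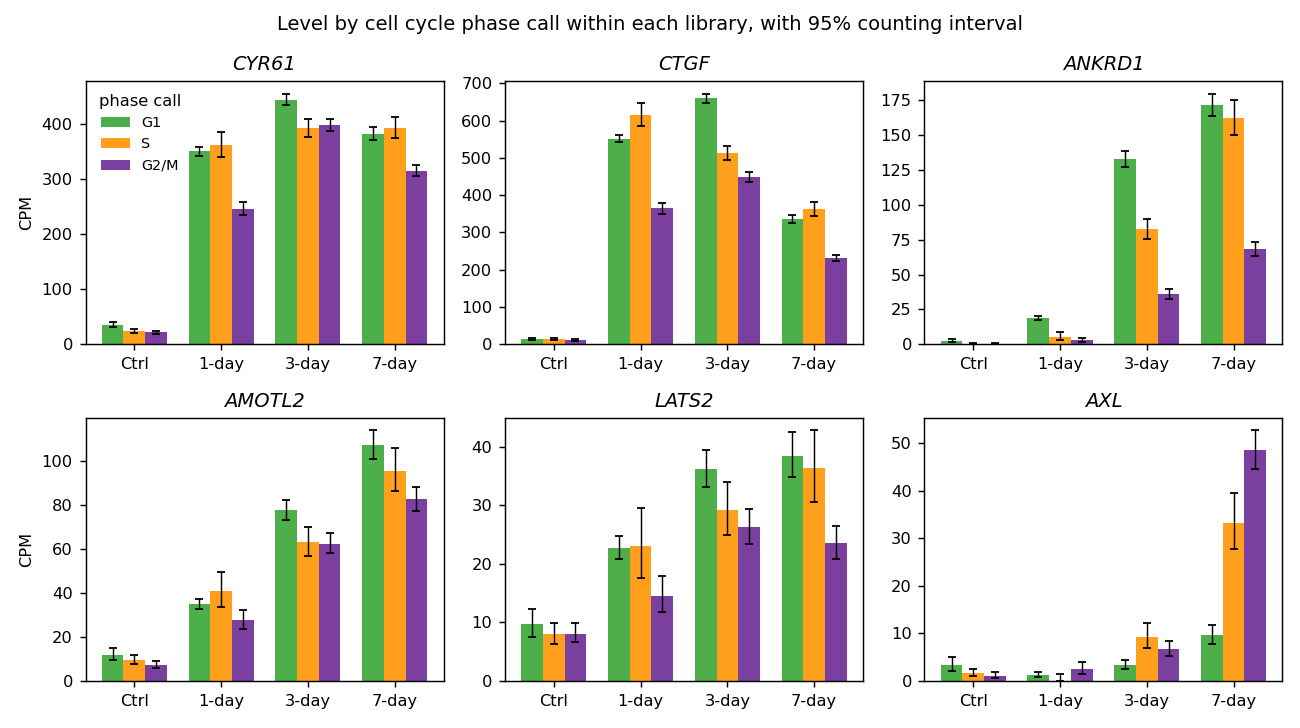
Level (CPM, bars from 0, with 95% counting intervals) of 6 targets in cells called G1, S or G2/M within each library. At 7-day *AXL* is at 9.65 CPM in G1 and 48.5 CPM in G2/M cells, and *ANKRD1* is at 171 CPM in G1 and 68.2 CPM in G2/M cells.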

How the data were processed

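Droplet-based 3′ scRNA-seq libraries were made from OVCA420 cells, 1 per time point. Reads were processed by the authors with Cell Ranger 2.0.1 on GRCh38 (per the labels), and the authors deposited raw UMI counts per gene and cell. The tables read here hold only part of the listed barcodes. Cells with more than 200 genes and at most 20% mitochondrial UMIs were retained (26 were removed by the latter limit). Scrublet, in scanpy 1.11.5, marked 43 cells (1.37%), which were retained. UMIs were summed per library. Cells were log-normalized as ln(1 + 10000 × count / total), and phases were called from the lists in Seurat 5.3.0. With 1 library per group no test was made. Shallow cells, from 20 to 89 per library, were left out of thinning. Gene positions are those of the GENCODE annotation of GRCh38, and no other gene of the same strand overlapped. The genes and lists were chosen with earlier results of these data known. Named genes are all 10, those of both lists past 2-fold at 10 CPM, and the 3 most like *CYR61* and *CTGF*, and other named genes were chosen after their values were seen. Alternatives covered filters, scaling (TMM in edgeR 4.0.16), thinning, phases, doublets and subsets of cells. The computations were tested on simulated data. Python 3.11.15 and R 4.3.3 were used.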

Additional observations from a re-analysis of the deposited data

Results flagged for a closer look

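*AMOTL1* was singled out because its log2 ratio to Ctrl had opposite directions at different times, with -1.02 at 1-day, 0.58 at 3-day and 1.06 at 7-day. Each time point is 1 library, so the difference between them was not tested. Within G1 cells the ratios were -1.13, 0.53 and 1.17, and within G2/M cells -1.16, 0.49 and 1.04. Within S cells they were -0.48 (-1.25 to 0.21), 0.75 and 0.67, so that the 1-day interval included 0 and neither the 1-day nor the 7-day value passed 2-fold.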

How the results depend on the processing

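No paired analysis was possible because each group had 1 library and no test was made. Counts of genes higher by at least 2-fold, in the set and in both other lists, stayed within 1.5 times under every alternative. The count of genes lower at 1-day, which was 1, became 0 with a mitochondrial limit of 10%, with median-of-ratios factors, with TMM factors and in the later of 2 equal sets of cells in barcode order, and became 2 in G1 cells, where *AXL* joined *AMOTL1* (-1.32). The r of *CYR61* and *CTGF* moved with thinning to 0.21 for Ctrl and to 0.46, 0.40 and 0.54 after 1, 3 and 7 days. In G1 cells it was 0.38 in Ctrl and 0.53 at 7-day. Alternatives chosen after seeing the data gave 0.65 in 1-day S cells and 0.57 in 3-day G2/M cells. The cause was not tested. Another reversed the r of *CYR61* and *ANKRD1* in Ctrl S cells to -0.023. *ANKRD1* had only 4 UMIs in those 327 cells, so nothing is drawn from that sign. Counting each log2 ratio of the 10 genes once per alternative, 317 values moved by less than the counting interval and 72 by more. The sign of *AXL* at 1-day differed between these sets of cells (-0.78 and 0.22). TMM shifted the median of all genes at 1-day by 0.10. Without a filter on level, 18.0%, 17.4% and 20.2% of genes were higher at 1, 3 and 7 days and 19.7%, 20.8% and 19.0% lower. Only part of the listed cells was analysed, and low genes such as *AXL* and *ANKRD1* in Ctrl are limited by counting error.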

Other observations

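Among all genes with at least 10 CPM at 7-day, the gene with the highest r to *AXL* across cells was *HMGN2*, which encodes a nucleosome-binding protein (0.42, beside a median r of 0.01 over 7896 genes). For *ANKRD1* it was the keratin gene *KRT6A* at 1-day (0.36) and *CRCT1* at 3-day and 7-day (0.39 and 0.38). These genes were chosen after their values were seen, and the part of depth and cell cycle phase in them was not tested.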
